A study of Mus musculus with 24 samples.

Results

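Female astrocytes that carried mutant p53 with the Y202C substitution were compared with female astrocytes that carried p53 Y217C. The comparison rests on 6 of the 24 RNA-seq libraries of the series, 3 per line, and on all 14427 genes of the deposited table, with no gene chosen by its value. Cells came from the cortex of postnatal day 1 C57BL/6 pups of genotype Trp53 f/-, which hold a floxed and a deleted Trp53 allele. Several female pups were pooled into 1 culture. That culture was transduced with a retrovirus that drives the mutant mouse Trp53 together with eGFP, sorted for eGFP, transduced with a lentivirus that carries Cre and puromycin resistance to delete the floxed allele, and selected in puromycin. Libraries were made from polyA RNA of cells at passages 10 to 15. The p53 KO line of the same culture carries Cre and the same deletion but no p53 retrovirus, and its 3 libraries are given beside both lines as a description. Male p53 Y202C and p53 Y217C astrocytes, made in the same way from 1 male culture, served for a test of whether the difference was the same there.

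Each line is 1 transduced culture. The 3 replicates are separate samples of it, so p-values reflect how samples of a line vary, not how animals vary. For the same reason the substitution, the amount of mutant Trp53 and the history of each line cannot be told apart.

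p53 is a transcription factor that responds to DNA damage and other stress by inducing genes of cell cycle arrest, apoptosis and metabolism, Cdkn1a and Mdm2 among them. Missense changes in its DNA-binding domain, the most frequent kind in tumors, impair that activity, and mutant proteins can take part in other transcriptional programs. Astrocytes are the main support cells of the brain. In culture with serum they proliferate and make much extracellular matrix.

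Both substitutions replace a tyrosine by a cysteine in the DNA-binding domain, and both codons lie in exon 6 of the cloned Trp53 transcript. The stretch from codon 195 to codon 224 of the unmutated transcript is shown because it holds both sites, with the codon changed in Y202C and, after it, the codon changed in Y217C in capitals (GENCODE M21, GRCm38, plus strand, chr11:69588658-69589149, with an intron between exons 6 and 7 left out).
Trp53 codons 195 to 224: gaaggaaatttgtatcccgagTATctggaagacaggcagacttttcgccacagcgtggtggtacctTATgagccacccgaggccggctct
The codon of Y202C is at chr11:69588679-69588681 and that of Y217C at chr11:69588724-69588726.

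Trp53 itself differed between the lines (chr11:69580359-69591873). Its level was 602, 605 and 573 CPM (counts scaled to the library size by edgeR's TMM factors) in the p53 Y202C libraries and 3546, 3870 and 3710 CPM in those of p53 Y217C. In the p53 KO libraries it was 51.9, 46.5 and 48.4 CPM. All libraries of p53 Y217C were above all of p53 Y202C, and both lines were above the knockout. Such a lack of overlap between the 6 libraries was common, at 8963 of 14427 genes (62.1%). The log2 fold change of p53 Y202C over p53 Y217C was -2.64 ± 0.06 (SE), with an adjusted p of 2.34e-21. Here and below, adjusted p-values are from edgeR's quasi-likelihood test with Benjamini-Hochberg adjustment over all genes, and log2 fold changes are p53 Y202C over p53 Y217C.

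The label of the cells was checked against astrocyte markers. Gfap, the intermediate filament of mature astrocytes, was at 0.0933, 0.124 and 0.0767 CPM in p53 Y202C and at 0.0705, 0 and 0.103 CPM in p53 Y217C (adjusted p = 0.395). The water channel Aqp4 had 0 counts in 4 of the 6 libraries and at most 0.0309 CPM in the other two. Aldh1l1, a folate enzyme used as a pan-astrocyte marker, did not exceed 0.402 CPM. Of the 22 astrocyte identity genes listed in the table, 16 reached a mean of 1 CPM in p53 Y202C and 14 in p53 Y217C. Among these were Sox9, a glial transcription factor, at 70.9 to 88.3 and 105 to 114 CPM, and the gap junction protein Gja1 at 204 to 228 and 137 to 165 CPM. Thus Gfap, Aqp4 and Aldh1l1 were below 1 CPM in every library of both lines, while other genes of the list were expressed. The study itself assessed astrocyte purity by immunofluorescence for the GFAP protein. It describes this staining with the pooled Trp53 f/- astrocytes, ahead of the transductions and the selection in puromycin. The stained cells and the later lines sequenced here thus need not be alike in GFAP.

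Depth ranged from 52787288 to 82044548 counts per library. Within each line 1 library stood apart from the other two. In p53 Y202C it was replicate 2, with 5.38% of its counts in cytosolic ribosomal protein genes against 4.70% and 4.45%, and in p53 Y217C it was replicate 1, with 5.34% against 4.85% and 4.82%. The root mean square log2 difference was 0.129 to 0.23 between libraries of a line and 0.657 to 0.688 between the lines. Without both of these libraries 8499 genes passed the test, of which 8074 passed in the same direction with all libraries.

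Of the 14427 genes, 9032 (62.6%) differed at an adjusted p of 0.05 or less. Of these, 4637 (32.1%) were higher in p53 Y202C and 4395 (30.5%) were lower, so most genes differed and a gene list has to be read against these shares. Large differences lay more often on the side of higher levels in p53 Y202C. Over 2-fold, 1236 genes (8.57%) were higher and 672 (4.66%) lower. Over 16-fold the numbers were 186 and 41. The median log2 fold change of all genes was near 0, at -0.002.

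**Figure D1:**
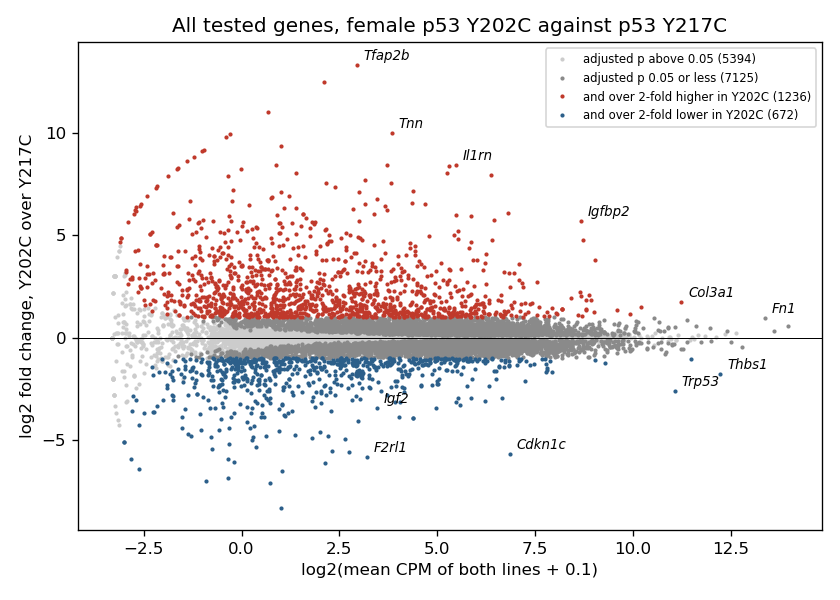
Log2 fold change of p53 Y202C over p53 Y217C (vertical axis) against the log2 mean CPM of both lines (horizontal axis) for all 14427 genes, with a point per gene and colors by call. The 1236 genes over 2-fold higher extend further from 0 than the 672 genes over 2-fold lower. Fitted values of genes with 0 counts in a line, such as Tfap2b, depend on the prior count.

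A few genes were on in p53 Y202C and off in p53 Y217C. Tfap2b (chr1:19208914-19238576), an AP-2 transcription factor of the neural crest and kidney, was at 17.2, 12.2 and 16.2 CPM in p53 Y202C and had 0 counts in all 3 libraries of p53 Y217C. Set against a floor of 3 counts per library, it was at least 387-fold higher in p53 Y202C. Its mean in p53 KO was 23.5 CPM, so the line without it was p53 Y217C and not the knockout. Sim1, a transcription factor of the hypothalamus, was at 8.92, 7.26 and 8.90 CPM against 0 counts, at least 213-fold higher. The p53 KO libraries had 0.992, 0.820 and 0.889 CPM. The potassium channel subunit Kcne4 was at least 88.3-fold higher and the angiotensin receptor Agtr2 at least 76.3-fold higher in p53 Y202C. AW551984 was at least 96.6-fold higher.

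Secreted and matrix proteins were among the genes with the largest rises. Tnn, the matrix glycoprotein tenascin N, was at 25.9, 28.9 and 29.9 CPM in p53 Y202C and at 0.0470, 0.0254 and 0 CPM in p53 Y217C (log2 fold change 10.01 ± 0.42, adjusted p = 6.16e-16). It had at most 4 counts in any p53 Y217C library, so its fitted value depends on the prior count. Eln, the elastic fiber protein elastin, was at 63.1, 84.9 and 80.2 CPM against 0.200, 0.203 and 0.473 CPM (8.07 ± 0.24, adjusted p = 1.16e-18). The matricellular protein Ccn5 was at 135, 193 and 167 CPM against 0.775, 0.737 and 0.414 CPM. Neither line overlapped the other for any of these 3 genes, as was the case at 62.1% of all genes. The p53 KO means of the 3 genes lay between the lines, at 0.854, 2.45 and 5.87 CPM. Il1rn, the antagonist of the interleukin 1 receptor, was at 89.6, 85.6 and 91.6 CPM in p53 Y202C and at 0.211, 0.305 and 0.236 CPM in p53 Y217C (8.46 ± 0.13, adjusted p = 5.81e-24). The chemokine Cxcl14, with a log2 fold change of 7.59, the glutathione transferase Mgst1, with 8.45, and the T-box factor Tbx1, with 7.20, were higher too.

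Among the genes lower in p53 Y202C, F2rl1, a protease-activated receptor, had the largest fall among those at 10 CPM or more. It was at 0.243, 0.278 and 0.384 CPM in p53 Y202C and at 15.2, 20.1 and 18.2 CPM in p53 Y217C (log2 fold change -5.84 ± 0.20, adjusted p = 2.24e-17). Myocd, a coactivator of smooth muscle genes, was at 0.336, 0.155 and 0.307 CPM against 10.7, 13.5 and 14.8 CPM. In p53 KO, at means of 27.4 and 6.70 CPM, both were nearer to p53 Y217C on the log2 scale. The secreted Wnt inhibitor Dkk2, at 8.53, 9.10 and 8.31 CPM against 84.1, 82.3 and 92.0 CPM, fell by 3.32 on the log2 scale. Lrrc15, the RNA-binding protein Rbpms and the microtubule protein Map2 had log2 fold changes of -3.44, -3.95 and -3.18.

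Insulin-like growth factor genes differed in opposite directions. Igfbp2 and Igfbp5 encode secreted proteins that bind insulin-like growth factors. Igfbp2 was at 727, 909 and 772 CPM in p53 Y202C and at 16.6, 15.2 and 14.3 CPM in p53 Y217C, a log2 fold change of 5.71 ± 0.13 (adjusted p = 1.16e-20). Igfbp5 was at 782, 774 and 881 CPM against 28.8, 29.8 and 31.2 CPM. The growth factor Igf2 went the other way, with 1.47, 1.68 and 2.21 CPM in p53 Y202C and 19.2, 19.4 and 21.7 CPM in p53 Y217C (-3.47 ± 0.19, adjusted p = 6.93e-14).

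Igf2 is an imprinted gene, that is, expressed mainly from the copy of 1 parent. Of 25 imprinted genes in the table, 13 were higher and 7 lower in p53 Y202C, with a median log2 fold change of 0.31, and 8 and 5 of them were over 2-fold. Grb10, an adaptor that restrains insulin and growth factor receptors, was at 81.7, 72.5 and 81.6 CPM in p53 Y202C and at 0.211, 0.254 and 0.222 CPM in p53 Y217C (log2 fold change 8.41 ± 0.11, adjusted p = 1.33e-25). In p53 KO its mean was 626 CPM, so it was below the knockout in both lines. Dlk1, a noncanonical Notch ligand, had a log2 fold change of 4.77. Cdkn1c, the cyclin-dependent kinase inhibitor p57, was at 4.83, 4.25 and 4.01 CPM against 260, 208 and 207 CPM (-5.70 ± 0.16, adjusted p = 2.71e-19). Its mean in p53 KO, 98.3 CPM, was between the lines. Thus the imprinted genes did not share a direction.

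**Figure D2:**
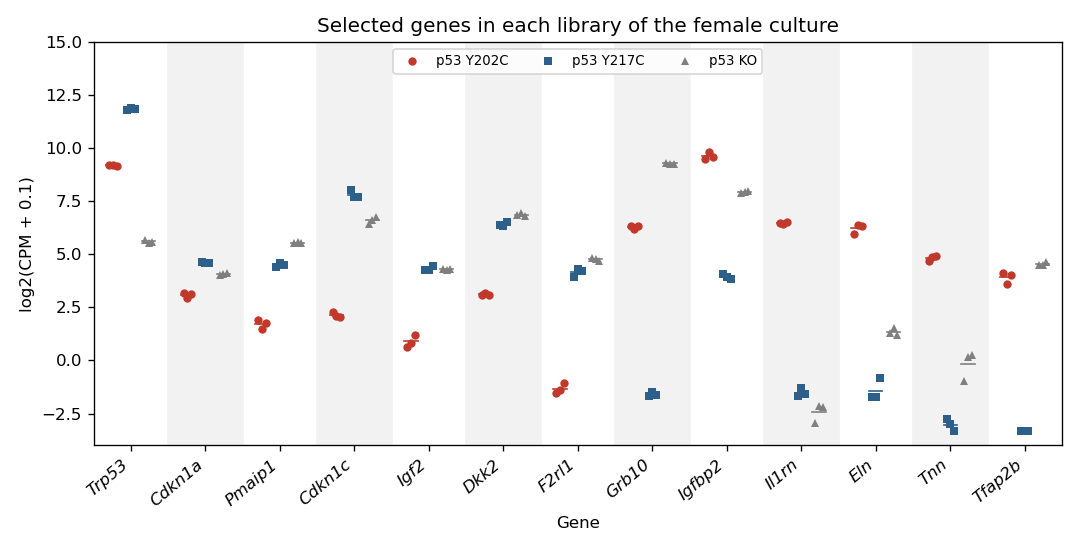
Level of selected genes in the 9 libraries of the female culture, as log2(CPM + 0.1), with 3 points per line and a bar at their mean. The libraries of p53 Y202C and p53 Y217C do not overlap for any gene shown, as is the case for 62.1% of all genes. For Grb10, p53 KO is above both lines, with a mean of 626 CPM.

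Genes that p53 activates were examined next. Of 35 p53 target genes, 17 were lower and 10 higher in p53 Y202C, with a median log2 fold change of -0.27 against -0.002 over all genes. Cdkn1a, the inhibitor of cyclin-dependent kinases through which p53 arrests the cell cycle, was at 8.96, 7.73 and 8.80 CPM in p53 Y202C and at 25.1, 23.9 and 24.1 CPM in p53 Y217C (-1.52 ± 0.08, adjusted p = 7.45e-14). Pmaip1, the apoptosis gene Noxa, was at 3.62, 2.66 and 3.30 CPM against 21.4, 24.4 and 22.4 CPM (-2.83 ± 0.12, adjusted p = 1.91e-15). In p53 KO, which lacks both the floxed allele and the retrovirus, Cdkn1a was at a mean of 16.8 CPM, between the lines, and Pmaip1 at 47.0 CPM, above both. Dcxr, a xylulose reductase, was higher at 1.81. Mdm2, the ubiquitin ligase that degrades p53, fell by 0.30. The proapoptotic Bax had a log2 fold change of -0.05 (adjusted p = 0.58). Of 12 regulators of p53, without Trp53 itself, 7 were lower and 2 higher, among the former the checkpoint kinase Chek1, which fell by 1.37.

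Cell division genes were lower in p53 Y202C almost throughout. Of 30 mitosis genes, 28 were lower and 0 higher, with a median of -0.69, although only 2 were over 2-fold lower. Kif23, a kinesin of cytokinesis, was at 69.2, 61.1 and 60.7 CPM in p53 Y202C and at 150, 175 and 170 CPM in p53 Y217C (-1.37 ± 0.08, adjusted p = 5.91e-13). The spindle and cytokinesis scaffold Anln was at 100, 92.5 and 96.7 CPM against 188, 230 and 220 CPM. The proliferation marker Mki67 was at 337, 232 and 306 CPM against 375, 493 and 500 CPM and fell by 0.65. Cenpf and Nuf2, both of the kinetochore, had log2 fold changes of 0.06 and 0.07 and did not pass the test. Of 41 DNA replication genes, 28 were lower and 3 higher (median -0.38), and Gins2, a subunit of the replicative helicase, fell by 1.02. Of 26 genes of the INK4, cyclin D and RB axis, 19 were lower and 4 higher (median -0.47). Cyclin D1, Ccnd1, which drives entry into the cycle, was at 151 to 165 CPM in p53 Y202C and at 312 CPM in every p53 Y217C library (-0.98 ± 0.05). In the same list the inhibitors Cdkn1c, Cdkn1a and Cdkn2a were also lower, so drivers and inhibitors of the cycle fell side by side.

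Interferon-stimulated genes rose as a group in p53 Y202C. These genes carry out the antiviral response to interferon, and a transcription factor complex that includes Stat2 and Irf9 switches on many of them by binding the interferon-stimulated response element (ISRE). Of 30 such genes, 28 were higher and 0 lower, 26 of them over 2-fold, with a median log2 fold change of 2.33. The promoters of 3 of them, 250 bases before the RefSeq transcription start (GRCm38.p6), are shown because they hold the ISRE core. Capitals mark the core, taken as GAAA, any 2 bases and GAAA again, which was searched on both strands, with overlapping matches joined.
Isg15, chr4:156200819-156201068, minus strand: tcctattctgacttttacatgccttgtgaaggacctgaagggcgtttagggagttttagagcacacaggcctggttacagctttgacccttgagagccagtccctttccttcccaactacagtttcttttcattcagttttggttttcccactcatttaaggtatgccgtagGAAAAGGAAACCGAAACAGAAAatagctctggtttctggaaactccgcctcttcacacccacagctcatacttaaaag
Ifit1, chr19:34640639-34640888, plus strand: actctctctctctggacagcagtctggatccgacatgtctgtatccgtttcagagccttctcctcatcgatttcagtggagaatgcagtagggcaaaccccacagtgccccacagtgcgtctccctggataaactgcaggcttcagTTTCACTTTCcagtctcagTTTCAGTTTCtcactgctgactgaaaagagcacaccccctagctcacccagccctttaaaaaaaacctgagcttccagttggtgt
Ifit3, chr19:34583279-34583528, plus strand: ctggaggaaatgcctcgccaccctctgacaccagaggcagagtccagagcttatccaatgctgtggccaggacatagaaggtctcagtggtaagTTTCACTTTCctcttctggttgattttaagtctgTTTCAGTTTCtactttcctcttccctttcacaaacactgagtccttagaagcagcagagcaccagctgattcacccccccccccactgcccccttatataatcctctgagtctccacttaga
Of the 21 interferon-stimulated genes with a promoter in the RefSeq table, 12 (57.1%) had a match, against 936 of 27025 genes (3.46%) in the whole table. Among genes over 2-fold higher in p53 Y202C, 71 of 893 (7.95%) had a match, among those over 2-fold lower 14 of 446 (3.14%), and among all tested genes 334 of 10290 (3.25%). The 893 genes include members of the interferon-stimulated list, so their share is not separate from that of the list. All of these are matches of letters, not measured binding.

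Isg15, a ubiquitin-like protein, was at 20.4, 24.8 and 27.8 CPM in p53 Y202C and at 6.14, 4.90 and 3.99 CPM in p53 Y217C (2.27 ± 0.20, adjusted p = 8.7e-10). Usp18, which removes Isg15 from proteins, was at 5.84, 6.26 and 8.64 CPM against 0.517, 0.381 and 0.310 CPM (4.08 ± 0.29, adjusted p = 1.46e-11). Irf7, a transcription factor that amplifies the response, was at 13.5, 13.6 and 14.5 CPM against 2.34, 0.966 and 0.975 CPM. For Usp18 and Irf7 the p53 KO means, 0.504 and 1.05 CPM, were close to the p53 Y217C level, so p53 Y202C was the line that differed. Stat2 and Irf9 rose as well, by 1.15 and 1.67. The receptor chain Ifnar2 had a log2 fold change of -0.03 (adjusted p = 0.595). Ifit2 and Bst2 were the members that did not pass, with log2 fold changes of -0.18 and 0.26. Of 19 genes of MHC class I and antigen processing, 9 were higher and 3 lower (median 0.12). The nonclassical H2-T23 rose by 1.51 while the classical H2-K1 fell by 1.09.

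**Figure D3:**
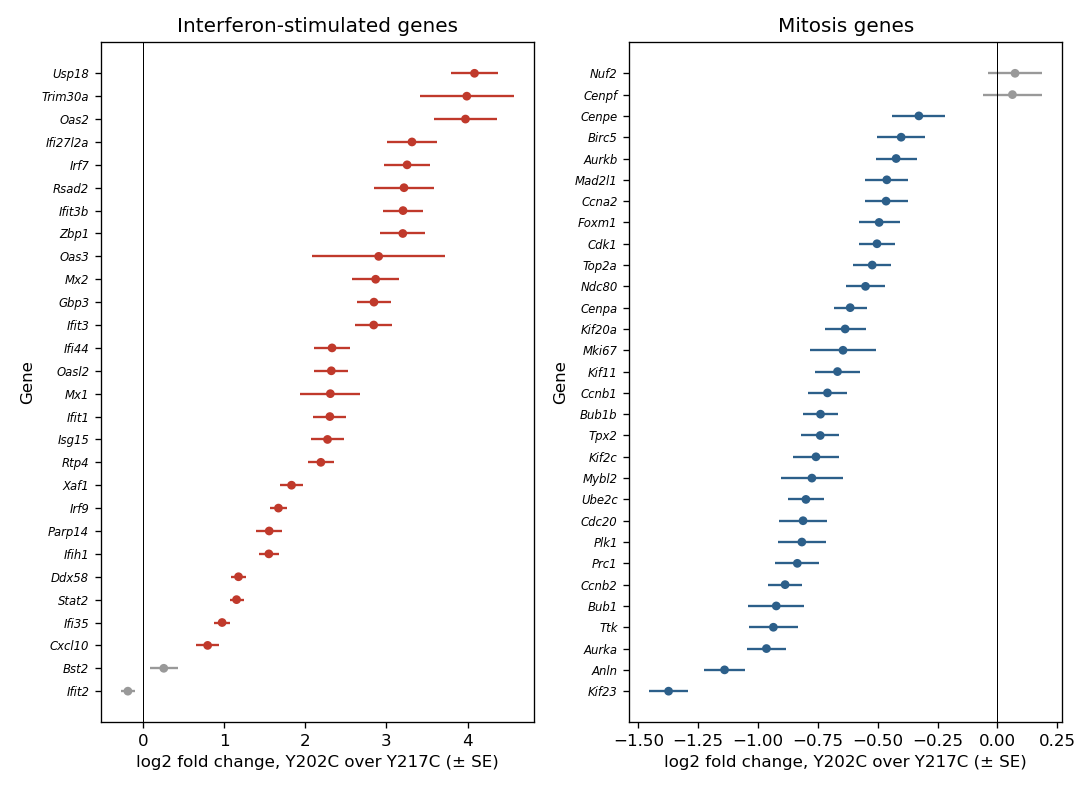
Log2 fold change (point) and its SE (line) for the interferon-stimulated genes on the left and the mitosis genes on the right, with genes that did not pass the test in grey. All colored interferon-stimulated genes are above 0 and all colored mitosis genes are below 0. Oas1a, with 0 counts in p53 Y217C, and a gene not reported here are not drawn.

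Other inflammatory genes were higher too. Of 27 cytokine and chemokine genes, 14 were higher and 4 lower (median 0.47), and of 27 genes of reactive astrocytes 17 were higher and 5 lower (median 0.76). Lcn2, a secreted iron-carrier protein of reactive glia, was at 6.78, 7.59 and 7.90 CPM in p53 Y202C and at 0.423, 0.191 and 0.369 CPM in p53 Y217C (4.50 ± 0.23, adjusted p = 4.46e-14). Complement C3 had a log2 fold change of 3.77. In the same list the heat shock protein Hspb1 fell by 1.81.

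Among astrocyte identity genes, 12 of 22 were higher and 4 lower (median 0.94). The glutamate transporter Slc1a3 was at 41.8, 39.3 and 46.9 CPM in p53 Y202C and at 3.24, 3.10 and 3.07 CPM in p53 Y217C (3.77 ± 0.12, adjusted p = 6.04e-18). Its p53 KO mean was 18.7 CPM. The gliogenic factor Nfib was at 749, 504 and 732 CPM against 119, 149 and 149 CPM. Sox9 fell by 0.45 and Ndrg2 by 1.32. Of 43 regional and homeobox factors, 28 were higher and 9 lower (median 0.86). Prrx2, a mesenchymal homeobox factor, was at 180, 205 and 180 CPM against 20.6, 19.8 and 21.1 CPM.

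Extracellular matrix genes were mostly higher in p53 Y202C. Of 53 matrix glycoproteins and proteoglycans, 33 were higher and 9 lower (median 0.88), and of 35 collagens 19 were higher and 9 lower (median 0.48). Fibronectin, Fn1, was at 13950, 13540 and 14210 CPM in p53 Y202C and at 7037, 7119 and 7252 CPM in p53 Y217C (0.96 ± 0.06, adjusted p = 2.58e-13). The fibrillar collagen Col3a1 was at 3431, 3972 and 3754 CPM against 1131, 1103 and 1076 CPM. The cartilage collagen Col2a1 rose by 5.21. The crosslinking enzyme Lox rose by 0.88 and the protease inhibitor Timp3 by 2.09. Against the trend, thrombospondin 1, Thbs1, was at 2240, 2049 and 2209 CPM against 7826, 7302 and 7248 CPM and fell by 1.78. The collagen Col4a1 fell by 0.55.

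Genes of mesenchymal transition, the switch from an epithelial to a motile state, were higher for 12 of 17 and lower for 3 (median 0.96). Snai1, a repressor of epithelial genes, rose by 1.44 and Twist1 by 0.79. The epithelial Cdh1, which that program represses, was also higher, at 3.92, though at no more than 1.96 CPM. Cldn1, a tight junction gene of epithelia, is in the list and rose by 1.72. The count and the median of the list thus cover genes of both states. Cdh2 fell by 0.84 and Six2 by 2.15. Of 40 cadherins and protocadherins, 25 were higher and 7 lower (median 0.74).

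In the Wnt pathway, in which secreted ligands act through Frizzled receptors to stabilize beta-catenin, 32 of 50 genes were higher and 11 lower (median 0.74). The ligand Wnt2 was at 20.2, 21.5 and 19.2 CPM in p53 Y202C and at 0.305, 0.229 and 0.369 CPM in p53 Y217C (6.08 ± 0.17, adjusted p = 4.25e-19). The receptor Fzd1 rose by 2.49, and so did inhibitors of the pathway, Sfrp1 by 2.55 and Wif1 by 2.72. Axin2, a target induced by beta-catenin, was at 9.76, 11.2 and 11.6 CPM against 0.987, 1.31 and 1.02 CPM (3.29 ± 0.17, adjusted p = 4.28e-14). Ccnd1 and Myc, also known as targets, fell by 0.98 and 0.93. Nkd1, another member of the Wnt list, fell by 2.31. Of 48 TGF-beta and BMP genes, 30 were higher and 9 lower (median 0.46). The ligand Bmp4, at 133, 131 and 128 CPM against 14.3, 12.2 and 13.0 CPM, rose by 3.31 and Id2, a BMP target, by 3.99. In that list 11 genes were over 2-fold higher and 2 over 2-fold lower. The latter were Bambi, which fell by 1.43, and Inhba, which fell by 1.17.

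Genes of lipid synthesis and of the ATF4 response were mostly lower. Of 34 genes of cholesterol and fatty acid synthesis, 22 were lower and 2 higher (median -0.29), among the former Msmo1, a sterol oxidase, which fell by 1.04. Of 34 genes of the ATF4 and unfolded protein response, 21 were lower and 8 higher (median -0.46). The amino acid transporter Slc7a5 was at 380, 396 and 346 CPM against 862, 859 and 915 CPM and fell by 1.23. The 78 oxidative phosphorylation subunits had a median of 0.06, with 26 higher, 13 lower and 39 that did not pass. The 80 cytosolic ribosomal proteins had one of 0.05, with 23 higher, 16 lower and 41 that did not pass. For those 2 lists the share that passed was below the 62.6% of all genes. Of 53 lysosomal genes 32 were higher and 12 lower (median 0.25), and of 25 NRF2 target genes 10 were higher and 9 lower (median 0.05).

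**Figure D4:**
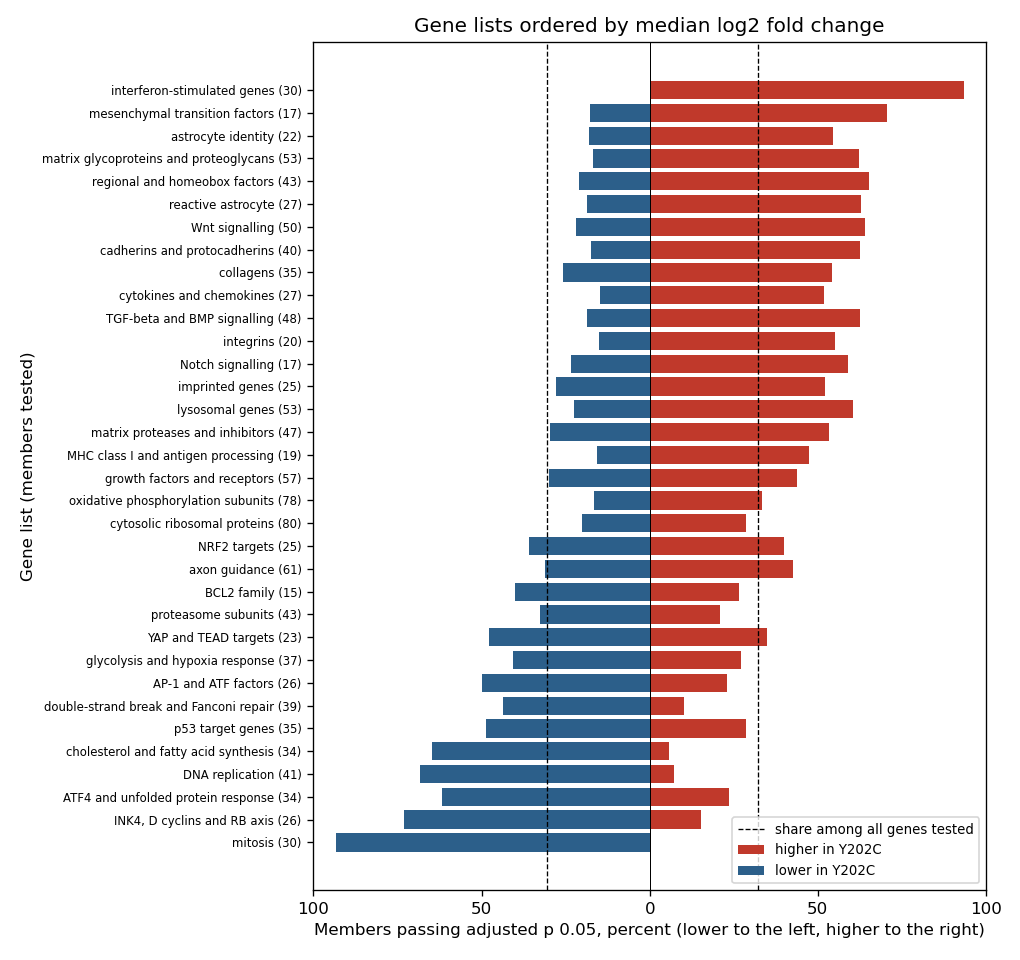
Share of the members of each gene list with at least 15 tested members that was higher (right, red) or lower (left, blue) in p53 Y202C at an adjusted p of 0.05 or less, ordered by median log2 fold change. Dashed lines mark the shares among all genes, 32.1% higher and 30.5% lower. Interferon-stimulated genes are at the top and mitosis genes at the bottom.

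Markers of other cell types moved as follows, and their part in the results above was not tested. The 9 markers of meningeal fibroblasts summed to 31020 to 36670 CPM in p53 Y202C and 23630 to 25510 CPM in p53 Y217C, with 5 higher and 2 lower. Most of these sums was collagen I. Col1a1 and Col1a2 were at means of 18990 and 13980 CPM in p53 Y202C and 12970 and 11090 CPM in p53 Y217C. Of the 9 markers, 1 was over 2-fold higher and 1 over 2-fold lower. The former was Pdgfra, a receptor for platelet-derived growth factor, at 139, 136 and 155 CPM against 9.49, 8.16 and 7.59 CPM. The latter was Aldh1a2, at means of 2.03 CPM in p53 Y202C and 7.13 CPM in p53 Y217C, which fell by 1.82 on the log2 scale. Pdgfra is also in the list of oligodendrocyte lineage markers, of which 4 of 6 were higher and 0 lower (median 0.545). The 7 mural markers summed to 3843 to 4430 and 4339 to 4515 CPM. Of the listed entries for microglia, 4 of 15 were in the table, summing to 96.8 to 118 and 124 to 138 CPM, and of those for endothelium 5 of 10, summing to 125 to 144 and 163 to 187 CPM. The sum and the median of the endothelial markers differed in direction, since 3 of the 5 were over 2-fold higher and 2 lower, with a median log2 fold change of 1.29. Of the microglial markers 1 was higher and 2 lower (median -0.21), and of the mural markers 3 were higher and 2 lower (median 0.41). In bulk samples a change in the number of cells of a type and a change in RNA per cell cannot be told apart.

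Xist, the RNA that silences an X chromosome in female cells, was at 654, 421 and 711 CPM in p53 Y202C and at 340, 415 and 473 CPM in p53 Y217C. The libraries overlapped. The log2 fold change was 0.54 ± 0.15 (adjusted p = 0.00266), and DESeq2 did not place it past the threshold (adjusted p = 0.0675).

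Differences were uneven along the genome. On chromosome 1, 545 of 849 genes (64.2%) were higher in p53 Y202C and 96 lower, with a median log2 fold change of 0.41, and on chromosome 14 306 of 496 (61.7%) were higher (median 0.39). On chromosome 9, 537 of 809 genes (66.4%) were lower (median -0.45). Chromosomes 4 and 8 had medians of -0.27 and -0.27, with 495 of 938 and 426 of 784 genes lower. Among the other chromosomes the median ranged from -0.09 on chromosome 5 to 0.17 on chromosome 12. In windows of 10 Mb with at least 20 genes, all 12 windows of chromosome 9 had medians under -0.3 and 14 of the 16 of chromosome 1 were over 0.3. On chromosome 14 this held for 4 of 8 windows, whose medians ranged from 0.09 to 0.58. Of the windows of chromosomes 4 and 8, 6 of 13 and 3 of 12 were under -0.3. Of the 161 windows on the other chromosomes, 1 was beyond either limit.

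Levels on these chromosomes were also set against p53 KO, itself a line of 1 culture. On chromosome 1 the median log2 difference from the p53 KO mean was -0.07, -0.08 and -0.04 in the p53 Y202C libraries and -0.47, -0.45 and -0.45 in those of p53 Y217C. Chromosome 14 was alike, with -0.09, -0.07 and -0.05 against -0.44, -0.43 and -0.41. For both chromosomes p53 Y217C was further below the knockout. On chromosome 9 p53 Y202C was below the knockout, at -0.21, -0.20 and -0.21, and p53 Y217C above it, at 0.17, 0.19 and 0.19. On chromosome 4, p53 Y202C was lower, at -0.30, -0.27 and -0.27, than p53 Y217C, at -0.08, -0.09 and -0.09. Chromosome 8 stood at -0.20, -0.16 and -0.20 in p53 Y202C and at 0.08, 0.03 and 0.05 in p53 Y217C. Its windows were uneven against the knockout. At 80 to 90 Mb both lines were below it, with medians of -0.81 in p53 Y202C and -0.53 in p53 Y217C, and at 120 to 130 Mb both were above it, with 0.22 and 0.44.

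**Figure D5:**
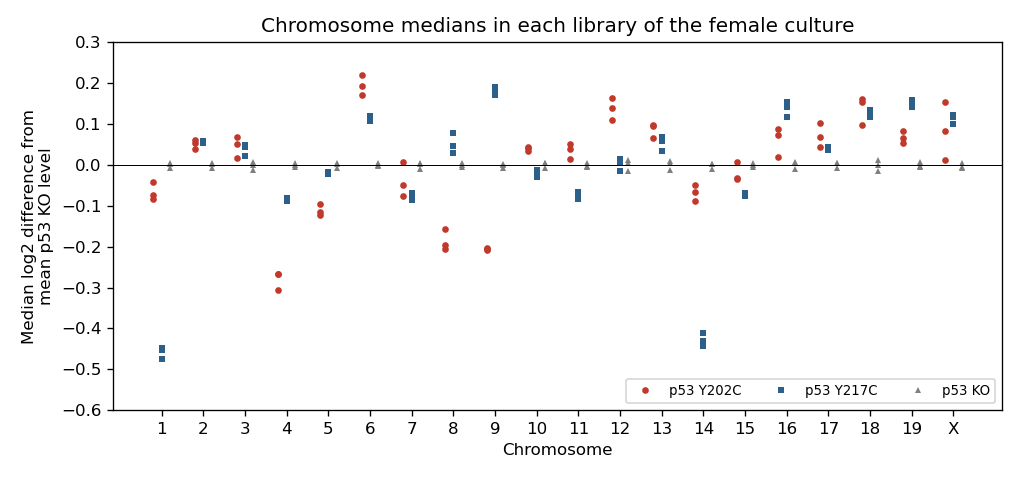
Median log2 difference of each library of the female culture from the mean p53 KO level, for the genes of each chromosome, with 3 points per line. The p53 Y217C libraries are near -0.45 on chromosome 1 and -0.43 on chromosome 14, and on chromosome 9 the lines are on opposite sides of 0.

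These shifts were set beside the gene groups by subtracting from each gene the median of its own chromosome. The median of the 30 mitosis genes was then -0.59, in place of -0.69, with all 30 below their chromosome's median. That of the interferon-stimulated genes was 2.40, with 29 of 30 above. For p53 target genes it was -0.30, for matrix glycoproteins 0.75, for Wnt genes 0.59 and for mesenchymal transition factors 0.58, in place of 0.96. For astrocyte identity genes it was 0.70, and for genes of the ATF4 and unfolded protein response -0.34, in place of -0.46. The median of imprinted genes went from 0.31 to 0.15, that of MHC class I and antigen processing genes from 0.12 to 0.32 and that of cytokines and chemokines from 0.47 to 0.71. As examples, Kif23, Anln and Chek1 lie on chromosome 9, and Fn1, Col3a1, Igfbp2, Igfbp5, Tnn, Tfap2b and Kcne4 on chromosome 1. Rbpms, Col4a1, Gins2, Msmo1 and Slc7a5 lie on chromosome 8, Bmp4 and Ndrg2 on chromosome 14 and Nfib on chromosome 4. The part of the chromosome shifts in their differences was not tested.

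Of the genes over 2-fold higher in p53 Y202C, 903 of 1236 (73.1%) had a p53 KO level nearer to p53 Y217C, and of those over 2-fold lower 468 of 672 (69.6%). Thus the knockout was nearer to p53 Y217C, the line with more Trp53, in both directions. Among the higher genes p53 KO lay between the lines for 713, below both for 402 and above both for 121. Among the lower genes p53 KO lay between the lines for 372, above both for 236 and below both for 64. With CPM from raw totals, the shares nearer to p53 Y217C were 75.5% of the higher and 65.9% of the lower genes. Both mutant lines were set against the same 3 libraries here, and no test was made.

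The same substitutions were compared in the male culture. There the order of Trp53 was the reverse, with a mean of 2324 CPM in p53 Y202C and 1215 CPM in p53 Y217C (log2 fold change 0.94), and the difference between the cultures passed the test (adjusted p = 1.8e-21). In all, the p53 Y202C against p53 Y217C difference was not the same in both cultures at 10187 of 14427 genes (70.6%). Of the 1908 genes over 2-fold in females, 1643 (86.1%) passed this test, 762 had the same sign in males and 1146 the opposite sign. These genes were chosen by the female difference, which is itself part of the test. A share above that of all genes is thus built into the choice. The signs were not counted over all genes, so the 762 and 1146 have no share to be read against.

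Some genes turned around. Tnn, at means of 28.2 and 0.0241 CPM in female p53 Y202C and p53 Y217C, was at 0.383 and 24.1 CPM in the male lines (difference of log2 fold changes 15.99, adjusted p = 2.18e-18). Fndc1, a fibronectin-domain protein, was at 21.6 and 0.189 CPM in females and at 6.07 and 364 CPM in males. Igf2 was at 1.79 and 20.1 CPM in females and at 9.32 and 0.549 CPM in males (adjusted p = 5.74e-17). Slc1a3 had a log2 fold change of 3.77 in females and -3.99 in males. Cdkn1a had one of -1.52 in females and 1.06 in males, and Pmaip1 one of -2.83 and 2.43.

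Other genes did not differ detectably between the cultures. Isg15 had log2 fold changes of 2.27 in females and 2.10 in males (adjusted p of the difference = 0.677) and Lcn2 of 4.50 and 4.20 (adjusted p = 0.765). The male means of Lcn2 were 0.502 CPM in p53 Y202C and 0.0256 CPM in p53 Y217C. Its male fold change thus rests on few counts. A p past 0.05 does not show that the changes were equal in both cultures. As a list, the interferon-stimulated genes had a male median of 0.22 and the mitosis genes one of -0.99, and 23 and 22 of 30 passed the test of the difference, near the 70.6% of all genes.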

How the data were processed

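RNA-seq libraries of 8 astrocyte lines, 3 replicates each, were grouped by the sample labels. The authors deposited raw counts per gene, which are whole numbers. Per the submitters' processing notes, reads were aligned with STAR 2.5.1a and counted with featureCounts of Subread. Per the study's methods, the reference was the Ensembl mouse primary assembly, of a release that carries GRCm38. The strand setting of the counting is not given in the sources used here. Without strand, reads of a gene and an overlapping gene on the other strand cannot be told apart.

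Symbols and positions came from GENCODE M21 (GRCm38) by gene identifier and named 14350 of 14427 genes. Promoters came from RefSeq (GRCm38.p6). Counts were scaled by TMM over all 24 libraries and fitted with 1 mean per line in edgeR 4.0.16 (R 4.3.3), and tested with glmQLFTest, Benjamini-Hochberg adjustment and a threshold of 0.05. All genes entered the fit. A separate contrast in the same fit tested the difference between the female and the male culture. CPM values carry the TMM factors, and log2 fold changes carry the default prior count of edgeR's fit. A prior count of 2 was used only for the log2 CPM behind the correlations of replicates. For genes at 0 a floor of 3 counts was used, which covers counting error only. Totals were 52787288 to 82044548 counts in the 6 libraries, where 3 counts equal 0.0352 to 0.056 CPM. Chromosome medians per library used log2(CPM + 0.5).

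The comparison, the 44 gene lists and the alternatives were chosen with earlier results of these data known. Genes were named by rule: 12 per direction with the largest changes at 10 CPM or more, up to 2 per list and direction over 2-fold at 5 CPM or more, switched genes, 8 per direction with the largest CPM difference, 4 per direction for the difference between cultures, and list members that did not pass. Aldh1l1, Gja1, Sox9, Mdm2, Bax, Mki67, Ccnd1, Cdkn2a, Isg15, Ifit1, Ifit3, Stat2, Irf9, Ifnar2, Fzd1, Sfrp1, Wif1, Axin2, Myc, Snai1, Twist1, Cdh1 and Cdh2 fall outside that rule and were chosen, for their known roles, after their values were seen. Alternatives were limma 3.58.1 (voomWithQualityWeights), DESeq2 1.42.0, its size factors, filters on low counts, other thresholds, the 6 libraries alone, a replicate block, raw totals, and each replicate left out. Scripts were tested on simulated data.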

Additional observations from a re-analysis of the deposited data

Results flagged for a closer look

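The p53 Y202C against p53 Y217C difference was tested for a difference between the female and the male culture, in the same edgeR fit with Benjamini-Hochberg adjustment. It passed at 10187 of 14427 genes. Among named genes the difference, female minus male log2 fold change, was 15.99 for Tnn, 15.06 for Ces1g, 14.61 for Tfap2b, 12.69 for Fndc1, -9.10 for Shtn1, -8.51 for Myocd, -7.63 for Ostn and -7.55 for Igf2. Ces1g and Tfap2b had 0 counts in every library of female p53 Y217C, and Tnn at most 4 in any of them, so their fitted values depend on the prior count. In the male lines Tfap2b was near 0 in both, at means of 0.00903 CPM in p53 Y202C and 0.0214 CPM in p53 Y217C. Its difference is therefore not a reversal between the cultures. Against the floor of 3 counts, Ces1g, a carboxylesterase, was at least 33.5-fold higher in female p53 Y202C, whereas its means in the male lines were 0.345 CPM in p53 Y202C and 12.9 CPM in p53 Y217C. Shtn1, a protein of axon outgrowth, was at 0.111 and 8.42 CPM in the female lines and at 81.5 and 10.6 CPM in the male lines. Ostn, a secreted peptide of muscle and bone, was at 0.0938 and 1.37 CPM in the female lines and at 10.8 and 0.798 CPM in the male lines. Each culture is 1 pool of pups, so sex and culture cannot be told apart.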

How the results depend on the processing

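With an absolute log2 fold change above 0.5 added to the threshold, 4645 genes differed in place of 9032, with 2533 higher and 2112 lower in p53 Y202C. The other settings gave 6980 to 9596 genes, the highest with limma's voomWithQualityWeights and the lowest with the 6 libraries alone and a replicate block. Leaving out 1 replicate at a time gave 8333 to 8794 genes, with 4283 to 4696 higher and 3949 to 4341 lower, and over 2-fold 1899 to 1970 genes, 1212 to 1284 higher and 677 to 701 lower. The count for the difference between the cultures was then 9900 to 10222. Leaving out p53 Y202C replicate 2 and p53 Y217C replicate 1 together, a setting chosen after seeing the data, gave 8499 genes. Of 2652 values of 166 named genes, 4 lost the threshold, 3 of Actb and 1 of Xist with DESeq2. Signs turned in 3 genes that had not passed. Leaving out 1 replicate at a time gave log2 fold changes of -0.116 to 0.021 for Bax, -0.075 to 0.006 for Ifnar2 and -0.045 to 0.173 for Cenpf. Ifit2 and Bst2 passed without 1 replicate, at -0.25 and 0.51.

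Replicate numbers gave no sign of pairing the samples. Deviations from the line means correlated between same-numbered libraries at -0.61, -0.34 and 0.03 over 9244 genes. Between differently numbered libraries they correlated at -0.35 to 0.50. These correlations are across genes, which are not independent. Deviations within a line are also tied by their common mean, so the values cannot exclude a pairing. With the replicate number as a block 8893 genes differed, 8862 of them shared in direction with the fit without it. In the 6 libraries alone the block moved the count from 7986 to 6980, and for the difference between the cultures it was 10086. Depth limits genes with few or 0 counts in a line, whose fitted fold changes depend on the prior count.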
